A study of Mus musculus with 6 samples.

Results

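The genes described are 9 transcription factors that act in the formation of branchiomeric head muscles, the muscles of the jaw, face and throat: Tbx1, Tcf21, Msc, Lhx2, Isl1, Nkx2-5, Hand2, Six2 and Twist1. They were chosen by gene symbol, with no filter on their levels, and are read by 10 of the 22690 probe sets of the array, 1 for each gene except Isl1, which has 2. A probe set is a group of short probes that together give 1 signal for a transcript. The signals come from the superficial masseter, a jaw-closing head muscle, and from the tibialis anterior, a muscle of the lower hindlimb, with 3 samples of each muscle and 1 array per sample. All samples were from normal female C57Bl/6 mice 6 months old, with no treatment or genetic change named. The sources used here do not name the mouse behind each sample, so p-values measure only the spread among these arrays, and some of it may be technical.

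Head muscles and limb muscles have separate embryonic origins. Limb muscles come from somites, whereas the masseter comes from unsegmented mesoderm of the head that enters the first pharyngeal arch. Progenitors there use a set of T-box, bHLH and homeodomain factors upstream of the myogenic regulators that both kinds of muscle share, and several of these factors also act in the early heart or in the neural crest cells that build the connective tissue of the face. Whole muscle holds fibres, satellite cells, connective tissue, vessels, nerve and fat. A lower signal can therefore reflect fewer cells of a type or less RNA per cell, which cannot be told apart here.

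None of the head muscle factors passed the test between adult masseter and tibialis anterior: 0 of 10 probe sets had an adjusted p under 0.05 (limma, Benjamini-Hochberg), against 1.18% of the 13576 probe sets tested in either direction. Paired SAM, the test named by the study, also called 0. The differences of Six2, with more signal in the masseter, and of Tbx1, with less, came nearest to the threshold. A filter on dim probe sets, set at a signal of 28.6, kept 4 of the 10, those of Tbx1, Six2, Msc and Nkx2-5. The other 6 lay under it and were read from a fit of all 22626 probe sets, of which 0.619% passed. At an unadjusted p under 0.05 there were 2 member probe sets among the 4 kept, where the share over all kept probe sets was 13.1%, and 3 of 10 in the fit without the filter, where it was 9.86%. In 5 of the 10 the signals of the muscles did not overlap, 3 with the masseter above and 2 with the tibialis anterior above. Over all probe sets 14.4% showed such a separation, 7.69% with the masseter above and 6.75% with the tibialis anterior above. Each difference is the log2 signal in masseter minus that in tibialis anterior, with the standard error (SE) and 95% interval of limma's fit, n = 3 per muscle.

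**Figure D1:**
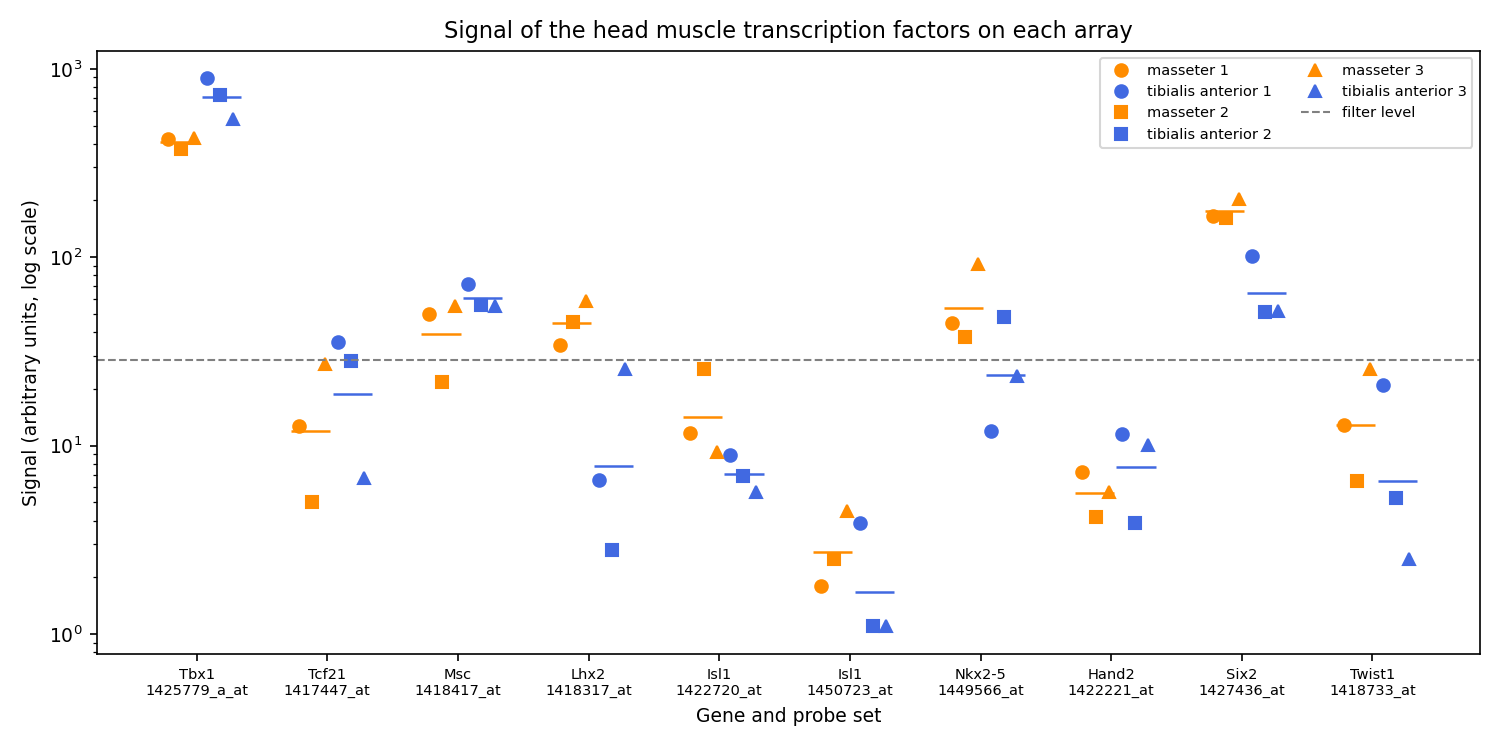
Signal of each head muscle factor on each array, on a log scale, with masseter in orange and tibialis anterior in blue. Marker shapes give the sample number, short lines the mean of the log2 signals and the dashed line the filter level of 28.6. The muscles separate for Tbx1, Six2, Msc, Lhx2 and the brighter Isl1 probe set, and most dim probe sets scatter widely within a muscle.

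Tbx1, a T-box factor of the pharyngeal mesoderm that is required for normal branchiomeric muscle development, was readily measured in both muscles. Its probe set 1425779_a_at gave signals of 423.1, 376.8 and 426.7 on masseter arrays 1, 2 and 3. The tibialis anterior arrays gave 892.0, 729.5 and 543.3. Every tibialis anterior array lay above every masseter array, and the masseter arrays were close together while the tibialis anterior arrays were spread. The SD of log2 signal was 0.10 for masseter and 0.36 for tibialis anterior. The mean signals of 408 and 707 differed by -0.79 ± 0.18 on the log2 scale (interval -1.21 to -0.38, adjusted p = 0.0968 by limma), a signal 1.73-fold greater in the limb muscle. The difference of the numbered pairs was -1.08, -0.95 and -0.35 for numbers 1, 2 and 3. The direction held in all 17 alternative settings, and the adjusted p was under 0.05 in 1 of them, the fit without replicate 3 (-1.01, adjusted p = 0.0495).

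Six2, a SIX-family homeodomain factor known from nephron progenitors and from craniofacial mesenchyme, stood in the opposite direction. Its probe set 1427436_at gave 164.6, 160.8 and 203.8 on masseter arrays 1, 2 and 3, against 101.7, 51.2 and 51.7 for the tibialis anterior. The lowest masseter array lay above the highest tibialis anterior array, which was number 1. The mean signals of 175 (masseter) and 64.6 (tibialis anterior) differed by 1.44 ± 0.27 (interval 0.82 to 2.06, adjusted p = 0.0517 by limma), or 2.72-fold. The numbered pairs differed by 0.69, 1.65 and 1.98. All 17 alternatives kept the direction, with values from 1.17 to 1.81, and 4 gave an adjusted p under 0.05. Those were the fit without the replicate block (0.0498), the stricter filter (0.043), the fit without replicate 1 (1.81, 0.00707) and the fit without tibialis anterior 1 (1.77, 0.0142).

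**Figure D2:**
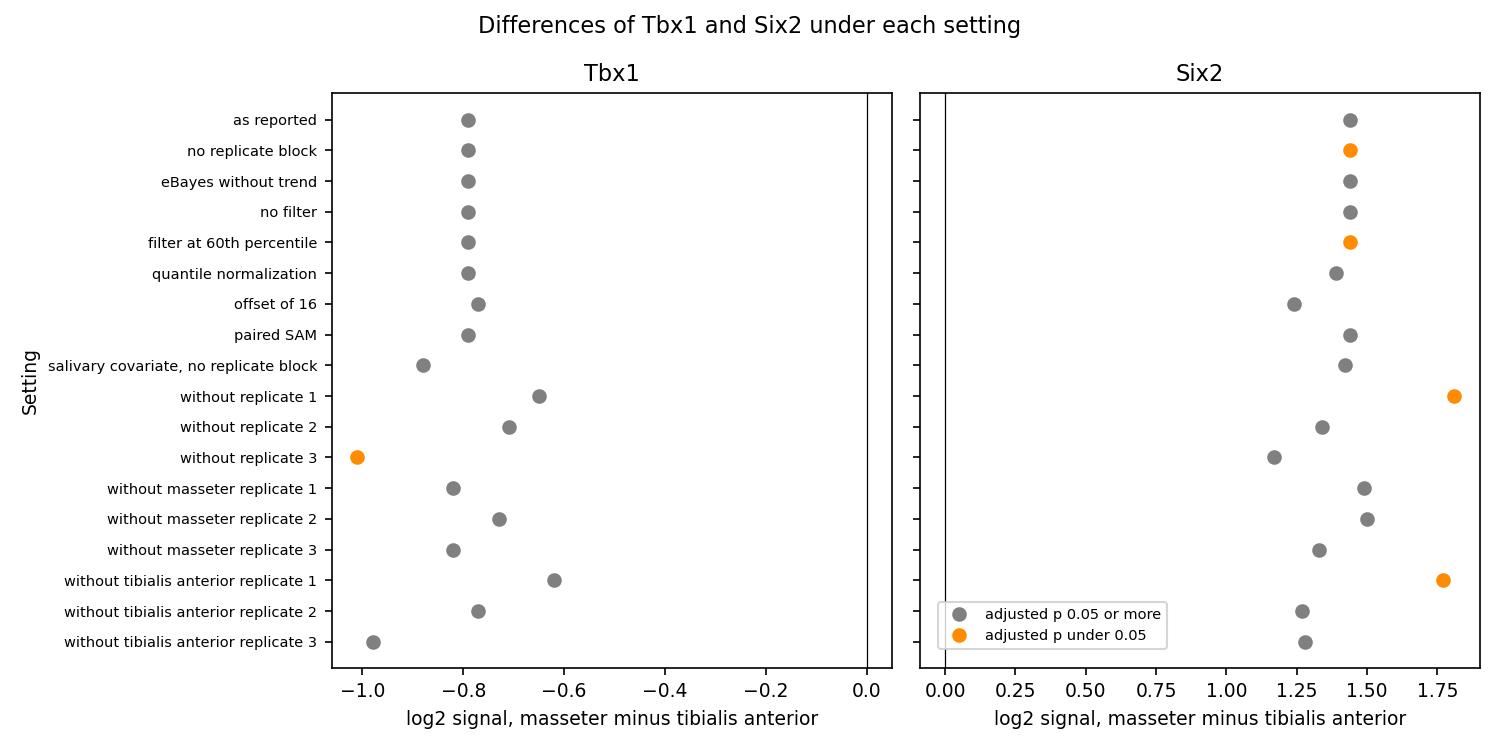
Difference of Tbx1 (left) and Six2 (right) in log2 signal, masseter minus tibialis anterior, under each setting of the analysis. Orange points have an adjusted p under 0.05, which paired SAM gives as a q-value. Tbx1 lies below 0 and Six2 above 0 in every setting shown, and the adjusted p crosses the threshold in 1 and 4 alternatives.

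The stretches before the transcription starts of these 2 genes are shown because their signals differed most clearly relative to their error. The sequences are RefSeq's for build GRCm38.p6, 250 bases long and on the gene's strand, and capitals mark a match to any motif searched. The matches are descriptions of the letters, not measured binding sites.

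Six2, chr17:85688255-85688504, minus strand: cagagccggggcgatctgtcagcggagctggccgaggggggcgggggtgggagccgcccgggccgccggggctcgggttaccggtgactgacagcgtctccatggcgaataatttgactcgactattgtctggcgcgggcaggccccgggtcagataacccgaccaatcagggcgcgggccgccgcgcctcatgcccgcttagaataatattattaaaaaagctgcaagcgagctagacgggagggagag

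Tbx1, chr16:18588900-18589149, minus strand: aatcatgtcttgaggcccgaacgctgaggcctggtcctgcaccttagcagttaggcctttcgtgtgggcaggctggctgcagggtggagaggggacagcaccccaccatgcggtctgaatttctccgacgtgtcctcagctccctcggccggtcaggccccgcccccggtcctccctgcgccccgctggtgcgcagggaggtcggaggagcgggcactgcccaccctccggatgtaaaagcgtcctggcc

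Tbx1, chr16:18590672-18590921, minus strand: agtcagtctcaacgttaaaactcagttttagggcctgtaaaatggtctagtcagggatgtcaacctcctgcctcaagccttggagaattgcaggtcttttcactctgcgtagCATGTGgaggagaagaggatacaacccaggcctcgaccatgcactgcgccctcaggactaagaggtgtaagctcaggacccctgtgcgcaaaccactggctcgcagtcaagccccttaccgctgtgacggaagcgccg

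Motifs of the factor families themselves were searched on both strands. These were the E-box CANNTG of bHLH factors, the MEF3 site TCAGGTT of SIX-family factors, the T-box half-site GGTGTGA, the LIM-homeodomain core TAATTA and the NKX2-5 site TNAAGTG. The Six2 stretch and the first Tbx1 stretch held 0 matches, and the second Tbx1 stretch held 1 E-box. Of 32851 transcription starts in the table, 66.2% held an E-box in a window of this length, 3.5% a MEF3 site, 3.3% a T-box half-site, 4.8% the LIM-homeodomain core and 10.1% the NKX2-5 site. RefSeq starts were matched for 8 of the 9 genes, 10 starts in all. Among the other members, Isl1 and Nkx2-5 held 1 E-box each, and Hand2 held 2 E-boxes and 1 LIM-homeodomain core.

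The bHLH factors Tcf21 and Msc, also known as capsulin and MyoR, are related repressors that act together in the formation of the jaw-closing muscles. Msc (1418417_at) gave signals of 50.2, 21.7 and 55.0 on masseter arrays 1, 2 and 3, against 72.3, 55.8 and 55.3 for the tibialis anterior. The muscles did not overlap, but masseter 3 and tibialis anterior 3 were nearly equal, and masseter 2 was low. The difference was -0.63 ± 0.35 (interval -1.43 to 0.17, adjusted p = 0.505 by limma). Without masseter 2, in an unpaired fit, it was -0.21.

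Tcf21 (1417447_at) lay under the filter, with signals of 12.7, 5.0 and 27.1 for masseter 1, 2 and 3 and 35.5, 28.1 and 6.7 for the same numbers of tibialis anterior. The arrays of the muscles were interleaved, and 1 of the 6 lay above the filter level. Its difference of -0.65 ± 0.91 had an interval from -2.73 to 1.43 (adjusted p = 0.89 by limma without the filter). The direction turned when replicate 2 was left out (0.27). A difference of 2-fold in either direction lies within that interval.

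Of the other bHLH members, Hand2 acts in the heart, the limb bud and the ventral pharyngeal arches, and Twist1 in head mesenchyme and cranial neural crest. Hand2 (1422221_at) was dim on every array, with signals from 4.2 to 7.2 for masseter and from 3.9 to 11.5 for tibialis anterior (difference -0.46 ± 0.72, adjusted p = 0.902 by limma without the filter). Twist1 (1418733_at) was also under the filter level on all 6 arrays. Its signals were 12.8, 6.5 and 25.4 on masseter arrays 1, 2 and 3 but 20.9, 5.3 and 2.5 on those of tibialis anterior, so the muscles overlapped. The difference of 0.98 ± 0.91 (adjusted p = 0.81 by limma without the filter) rested on pair 3, which differed by 3.34, and was -0.21 without replicate 3.

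The LIM-homeodomain members are Lhx2, which acts in progenitors of pharyngeal muscle, and Isl1, which marks cells that contribute to the heart and to branchiomeric muscle. Lhx2 (1418317_at) gave 34.1, 45.1 and 58.5 on masseter arrays 1, 2 and 3, against 6.6, 2.8 and 25.5 for the tibialis anterior. The masseter arrays all lay above the filter level and the tibialis anterior arrays all below it, and the averaged log2 signal was under the filter. The fitted difference was 2.53 ± 0.70 (interval 0.93 to 4.12, unadjusted p = 0.00618, adjusted p = 0.232 by limma without the filter). The masseter mean of 44.8 was 1.57-fold the filter level, under which the limb muscle lay. That level is a cut on mean signal, not a limit of detection. An offset that damps dim signals gave a difference of 1.23, and none of the 15 alternatives run for Lhx2 brought the adjusted p under 0.05, the lowest being 0.136.

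Both Isl1 probe sets were dim. The brighter, 1422720_at, gave 11.7, 25.6 and 9.3 on masseter arrays 1, 2 and 3, against 8.9, 6.9 and 5.7 for the tibialis anterior. These did not overlap, yet every value lay under the filter level, and the difference of 1.00 ± 0.71 did not pass (adjusted p = 0.729 by limma without the filter). The dimmer, 1450723_at, had signals from 1.1 to 4.5 and a difference of 0.70 ± 0.78 (adjusted p = 0.852 by limma without the filter).

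Nkx2-5 is a homeodomain factor best known from the heart, which is also used in pharyngeal mesoderm. Its probe set 1449566_at gave 44.8, 37.7 and 92.5 on masseter arrays 1, 2 and 3, against 11.9, 47.9 and 23.5 for the tibialis anterior. The muscles overlapped, because tibialis anterior 2 lay above masseter 1 and 2. The difference was 1.18 ± 0.53 (interval -0.03 to 2.39, adjusted p = 0.395 by limma). Pairs 1 and 3 differed by 1.91 and 1.98 and pair 2 by -0.35.

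**Figure D3:**
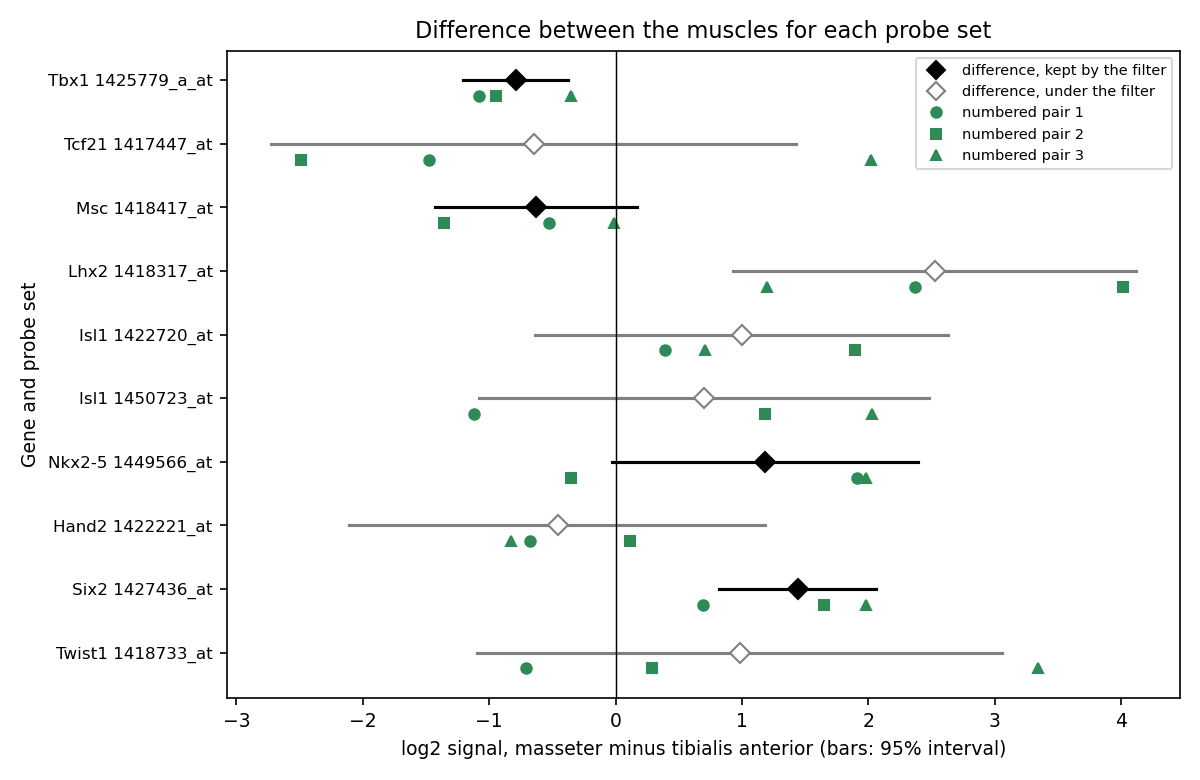
Difference in log2 signal, masseter minus tibialis anterior, for each probe set (diamonds) with its 95% interval (bars). Filled black diamonds were kept by the filter, open grey ones were not, and green marks give the numbered pairs. The intervals of Tbx1, Six2 and Lhx2 do not include 0 before adjustment, and those of the dim probe sets are wide.

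The precision of these values followed the signal. The median SE over all kept probe sets was 0.22, and over the probe sets under the filter it was 0.73. Y-linked genes, which female mice lack, served as a rough guide to signal without transcript, given that each probe set has its own background. Their 10 probe sets ranged from 1.0 to 51.6 with a median of 8.9, and 6 of their 60 signals reached the filter level. The top of that range, 51.6 and 50.5, came from the Sry probe set 1450579_x_at. Outside that probe set the highest signal was 39.0, for Usp9y in tibialis anterior 1. All signals of Hand2, Twist1 and Isl1, and 5 of 6 of Tcf21, lay under the filter level, so a level could not be told from dim signal, which does not show that the transcripts are absent. The signals of Lhx2 in the masseter and of Msc and Nkx2-5 overlap the top of the Y-linked range, and every signal of Tbx1 lay above it, as did all those of Six2 except 51.2 in tibialis anterior 2.

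**Figure D4:**
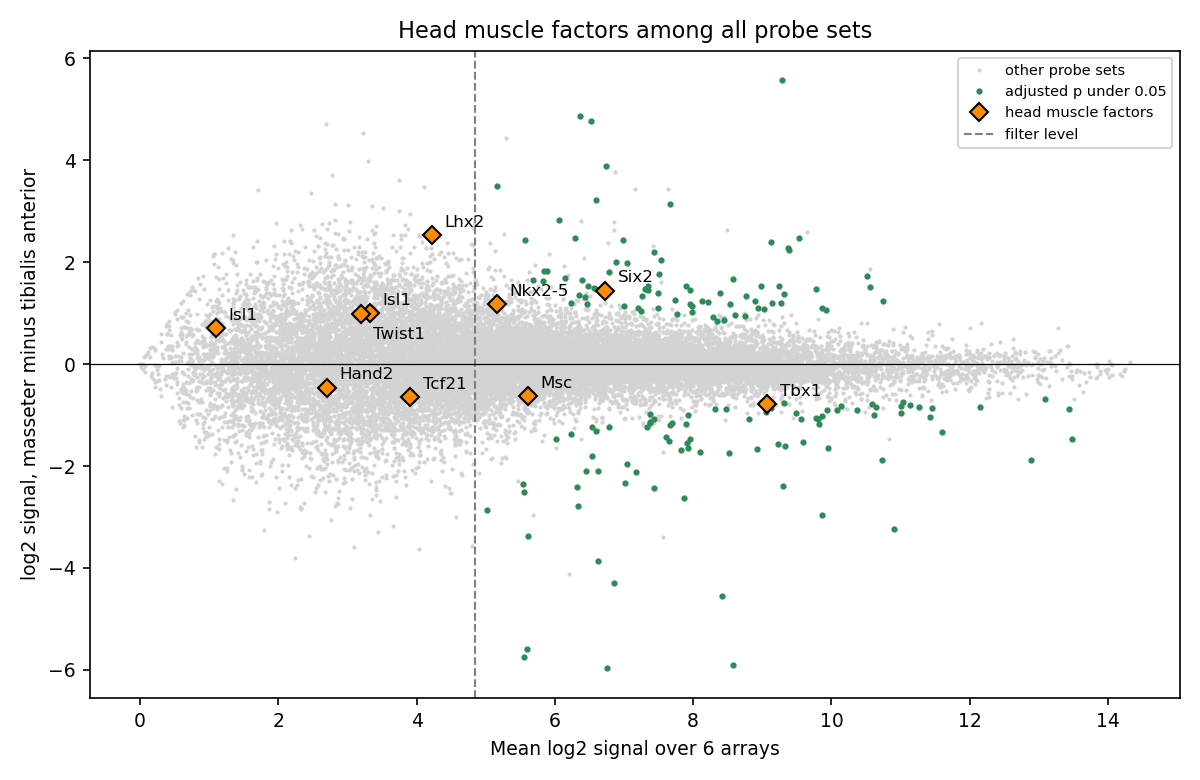
Mean log2 signal over the 6 arrays against the log2 difference, masseter minus tibialis anterior, for all probe sets other than controls. Green points had an adjusted p under 0.05, orange diamonds are the head muscle factors and the dashed line is the filter level of 4.84. Differences scatter more at low signal, where 6 of the 10 diamonds lie.

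The genes most like each of the 3 brightest members were found by Pearson's r of log2 signal over the 6 arrays among 8312 genes. Such values describe 6 arrays in 2 groups. For Tbx1 they were Rbfox1, an RNA-binding splicing regulator (r = 0.9895), Myh7, the slow myosin heavy chain (r = 0.9839), and Bzw1 (r = 0.9817). Myh7 gave 18.8, 14.5 and 28.8 on masseter arrays 1, 2 and 3, under the filter level on masseter 1 and 2 and barely above it on masseter 3. It gave 157.0, 107.4 and 53.9 on tibialis anterior arrays 1, 2 and 3, the order that Tbx1 has there. For Six2 they were Metrnl, a secreted protein (r = 0.9936), R3hdm1 (r = 0.9892) and Zfp33b (r = 0.9875). Zfp33b lay under the filter level on tibialis anterior 2 and 3 (12.7 and 13.8). For Msc they were Emb (r = 0.996), Nepro (r = 0.9916) and Tnc, the matrix glycoprotein tenascin C (r = 0.989). On masseter 2, where Msc was lowest, these 3 genes gave 7.1, 20.9 and 4.6, all under the filter level, and on the other arrays they lay between 36.0 and 65.1, so their likeness to Msc rests largely on 1 dim array. Over 0.9 there were 125 genes for Tbx1, 141 for Six2 and 65 for Msc.

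Genes that work with these factors or belong to their families were read from 5 lists with 77 genes, of which 73 were on the array and 43 were kept by the filter. Of the 43, 1 was higher in the masseter, 0 were higher in the tibialis anterior and 42 did not pass (adjusted over all probe sets, limma). Of all kept probe sets 0.56% were higher in masseter and 0.619% in tibialis anterior. At an unadjusted p under 0.05 there were 7 of the 43, where the share over all kept probe sets was 13.1%. Their median difference was 0.06, where that of all kept probe sets was 0.02. The gene that passed was Ebf1, an early B-cell factor family member active in mesenchyme and in fat cell formation. Its brightest probe set, 1416301_a_at, gave 248.2, 332.4 and 463.4 on masseter arrays 1, 2 and 3, against 118.5, 108.9 and 75.8 for the tibialis anterior. The muscles did not overlap, and the difference was 1.76 ± 0.28 (adjusted p = 0.0267 by limma). Its other probe sets, 1416302_at and 1448293_at, also had more signal on every masseter array but did not pass (1.11 ± 0.28 and 1.05 ± 0.21, adjusted p = 0.125 and 0.0631 by limma). The Ebf1 call held in 13 of 17 alternatives and ended with eBayes without trend (0.245), with paired SAM (0.141), without masseter 2 (0.0771) and without tibialis anterior 3 (0.0554).

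Among T-box relatives of Tbx1, 0 of the 4 kept genes passed in either direction, with a median of 0.25. Tbx15, a T-box gene of limb and trunk mesenchyme that is also active in fast muscle fibres, had mean signals of 887 and 606 (0.55 ± 0.23, adjusted p = 0.369 by limma), and Mga had 57.3 and 43.4. In the SIX-EYA-DACH network, in which EYA proteins act as cofactors, 0 of 5 passed, with a median of 0.16. Six4, which acts in skeletal muscle, had 180 and 150, and Eya3 had 154 and 125.

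Of the partners and relatives of the bHLH members, 0 of 10 passed, with a median of -0.16. The E proteins Tcf4 and Tcf12, with which bHLH factors pair to bind DNA, had mean signals of 490 and 614 (-0.33 ± 0.16, adjusted p = 0.456 by limma) and of 489 and 367 (0.41 ± 0.16, adjusted p = 0.314 by limma). Dimmer kept probe sets did not all share these directions, such as 1424089_a_at of Tcf4 (0.25) and 1421908_a_at of Tcf12 (-0.25). Of the LIM-homeodomain genes and cofactors, 0 of 11 passed, with a median of 0.20. Ssbp2, of a family that stabilises the LIM cofactor complex, had 357 and 242 (0.56 ± 0.18, adjusted p = 0.216 by limma), and Lmo2, a LIM-only protein, had 233 and 165. In the list of cardiopharyngeal genes, those of the shared heart and pharyngeal mesoderm and of the facial mesenchyme, Ebf1 was 1 of 14 kept, 0 were higher in the tibialis anterior and 13 did not pass, with a median of -0.03. Its 2 brightest members were Prrx1, a homeodomain factor of mesenchyme (506 and 665, -0.39 ± 0.14, adjusted p = 0.292 by limma), and Smarcd3, a subunit of a chromatin remodelling complex (619 and 520). A dimmer kept probe set of Prrx1, 1425526_a_at, went the other way (0.42) and did not pass.

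**Figure D5:**
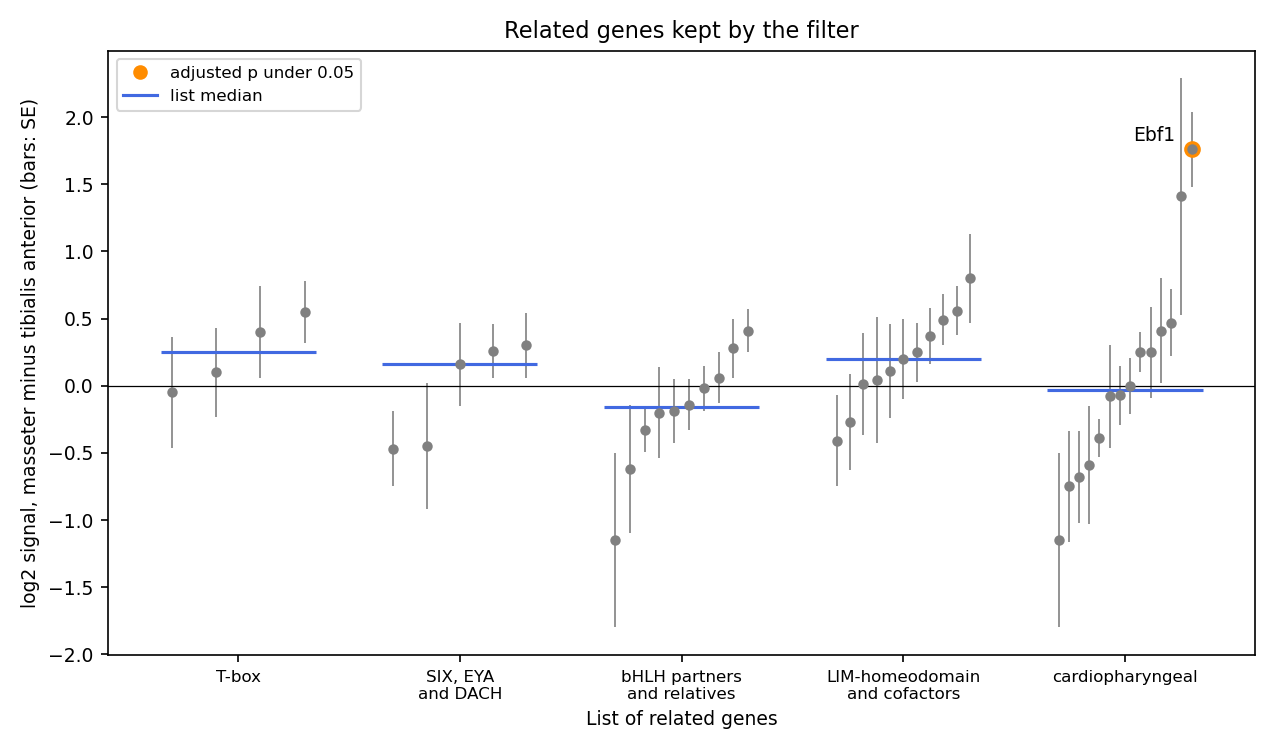
Difference in log2 signal, masseter minus tibialis anterior, with SE bars for the related genes kept by the filter, ordered within 5 lists. Blue lines are list medians, from -0.16 to 0.25. Ebf1, in orange, is the gene with an adjusted p under 0.05.

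Markers checked the labelled tissue and the other cells it can hold. Fibre genes such as Acta1 and Ckm were near the top of the scale in both muscles (mean signals of 18298 to 20066), and of 7 fibre genes only the fast heavy chain Myh4 passed, lower in the masseter. Fibre sums were 91152 to 114443 for masseter and 114992 to 122382 for tibialis anterior. These sums narrowly separated the muscles in the direction of Tbx1, and their part was not tested. Among the brightest probe sets of these genes only that of Myh4 separated the muscles. It gave 5649.2 to 8100.0 in masseter and 17512.5 to 20228.3 in tibialis anterior, so the separation of the sums rests largely on Myh4. Connective tissue fibroblast markers summed to 6396 to 7038 for masseter and 4987 to 6410 for tibialis anterior, so the muscles overlapped, and the list median was 0.22. Of its 9 genes 6 had a difference above 0. Dpt passed (1.19, in 7 of 17 alternatives), and the brightest, Dcn, stood at 0.16. The brighter Pdgfra probe set (0.78) had more signal on every masseter array but did not pass. Col1a1 (-1.26), which did not pass, had less signal on every masseter array, and Col3a1 and Col1a2 stood at -0.16 and -0.02. The adipocyte sums of 4030 to 5748 and 2885 to 4934 also overlapped, and Adipoq passed (1.26, in 7 of 17 alternatives). Nerve and Schwann cell sums were 972 to 1092 and 597 to 729, with 0 of 4 past the threshold. The nerve sums separated the muscles in the direction of Six2 and Ebf1, and their part in those differences was not tested. Dpt and Adipoq also had more signal on every masseter array, the same direction, though the sums of their lists overlapped. The part of these genes was not tested either. Smooth muscle and pericyte sums were 3982 to 4764 and 5489 to 7055, with 0 of 5 passing. They separated the muscles in the direction of Tbx1, and their part was not tested. Tendon sums of 768 to 1200 and 1020 to 1449 overlapped. Of the 4 kept tendon genes Thbs4 was lower in the masseter (-1.65, in 9 of 17 alternatives), and the brightest, Fmod, did not pass (0.26). The median of the kept genes was -0.53. Of the 5 on the array, 3 (Thbs4, Comp and Scx) had every tibialis anterior array above every masseter array. That is the direction of Tbx1, and their part was not tested. Endothelial (995 to 1051 and 947 to 1410), immune (608 to 931 and 509 to 797) and satellite cell sums (262 to 302 and 253 to 333) overlapped, with 0 genes past the threshold, and the satellite cell markers Pax7, Myf5 and Calcr lay under the filter. All 6 cardiac markers also lay under it by their mean log2 signal, but Nppb and the brighter Tnnt2 probe set separated the muscles. Nppb lay above the filter level on every masseter array and below it on every tibialis anterior array (2.29 ± 0.61, adjusted p = 0.217 by limma without the filter). Tnnt2 lay above it on every tibialis anterior array and below it on every masseter array (-1.41 ± 0.50, adjusted p = 0.38 by limma without the filter). Neither passed, and their part was not tested. Salivary gland markers reached 33392 in masseter 1 and lay between 2352 and 4414 on the other arrays. Masseter 2 and tibialis anterior 1 also held salivary signal that these sums hide. Pip gave 8070.6, 563.6 and 24.2 on masseter arrays 1, 2 and 3, against 72.4, 20.7 and 3.6 for the tibialis anterior. Smr3a gave 10655.6, 487.6 and 42.1, against 376.1, 58.7 and 14.5. Both genes fell from number 1 to number 3 in each muscle. For both, tibialis anterior 1 lay above masseter 3, so the muscles overlapped. Of the 5 kept salivary genes Pip (4.77, in 6 of 17 alternatives) and Smr3a (3.14, in 5 of 17) passed, higher in the masseter. Without masseter 1 the difference was -0.82 for Tbx1 and 1.49 for Six2 (adjusted p = 0.177 and 0.108 by limma). These fits still held masseter 2. With the salivary covariate and no replicate block the values were -0.88 and 1.42 (adjusted p = 0.127 and 0.114 by limma).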

How the data were processed

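Biotin-labelled RNA copies of each muscle's total RNA were read on oligonucleotide arrays, per the labels' protocols. The values the authors deposited are linear signal intensities for every probe set. MAS5 and GCOS are the programs in the submitters' processing notes, with settings not given in the sources used here. The 2% trimmed mean was 150.1 on all 6 arrays, so no scaling was added, and array medians ran from 44.1 to 50.7. The number of arrays limits the precision. Detection calls were not used here.

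Gene names came from the platform annotation, for probe sets with 1 symbol (20380 probe sets, 691 with several, 1555 with none, 64 controls left out). Signals under 1 were set to 1, then log2 was taken. Probe sets at or above the 40th percentile of mean log2 signal (4.84) were kept. The test was two-sided limma 3.58.1 under R 4.3.3 (lmFit, eBayes with trend). The number in the sample titles was a block, since the study reports paired tests. P-values were adjusted by Benjamini-Hochberg over every probe set in the fit, with a threshold of 0.05. Genes with several probe sets are represented by the brightest. The code was tested on simulated data.

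Members, lists, tests and alternatives were chosen with earlier results of these data known. Besides every member, the rule for named genes took, from each related list and marker list, the genes past the threshold and the 2 brightest, and the 3 genes most like each of the 3 brightest members. Marker genes are given mostly as list sums. Alternatives changed the block, variance trend, filter, normalization, offset, test, salivary covariate and samples.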

Additional observations from a re-analysis of the deposited data

How the results depend on the processing

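The threshold of adjusted p was met by 160 probe sets, by 13 with eBayes without trend, by 51 with paired SAM, by 87 with the salivary covariate and no replicate block, and by 47 to 188 when replicates or single arrays were left out. For the head muscle factors the count of 0 became 1 with no replicate block and under the stricter filter, at the 60th percentile, and was 0 to 1 with samples left out. Six2 was that probe set with no replicate block (1.44, adjusted p = 0.0498) and with the stricter filter (1.44, adjusted p = 0.043). With samples left out, Six2 ranged from 1.17 to 1.81, Tbx1 from -1.01 to -0.62, Msc from -0.94 to -0.21, Nkx2-5 from 0.68 to 1.94, Lhx2 from 1.78 to 3.38, Hand2 from -0.95 to -0.17, and the Isl1 probe sets from 0.55 to 1.30 (brighter) and from 0.03 to 1.61 (dimmer). Tcf21 ranged from -1.99 to 0.27 and Twist1 from -0.21 to 1.82, each turning sign once, so their directions are not settled. Of the related genes past the threshold, the count of 1 became 0 with eBayes without trend and with paired SAM, and was 0 to 1 with samples left out. The cause of these changes was not tested, and some of these fits held fewer samples or probe sets. Over kept probe sets, deviations of same-numbered samples correlated at 0.0392, 0.152 and 0.101 for numbers 1, 2 and 3, and all other pairings lay between -0.157 and 0.0468, so the data do not settle whether a number marks 1 mouse. Dim signal limits Tcf21, Hand2, Twist1, Isl1 and Lhx2.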
